A study of Mus musculus with 9 samples.

Results

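Glutathione transferases join the tripeptide glutathione to electrophilic compounds, and the mammalian enzymes fall into classes that differ in sequence, location and reaction. The 9 genes described here were chosen from those outside the large alpha and mu classes: pi (Gstp1, Gstp2), theta (Gstt1, Gstt2, Gstt3), zeta (Gstz1), omega (Gsto1), kappa (Gstk1) and the membrane-bound microsomal enzyme 1 (Mgst1). They were chosen by name in the gene table, and 7 of the 9 had an entry under their name, out of 26345 named entries with a known transcript. The entry of Gstt3 also held transcripts of neighbouring genes. Gstp1 and Gstp2 had no entry, since their transcripts were merged into an entry named after another pi gene, Gstp3. This entry is called the pi entry below and was followed beside the 7 members.

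Liver RNA was sequenced in 3 groups of 3 libraries. PF mice (pair-fed) received an isocaloric control liquid diet, AF mice (alcohol-fed) received the Lieber-DeCarli liquid diet, and AF with MNA mice received the Lieber-DeCarli diet together with MNA at 50 mg/kg, given intraperitoneally (the abbreviation is not explained in the labels). All were labelled as 8 weeks old and fed for 5 weeks. The strain is given as C57BL/6 for PF and AF and as C57BL/7, C57BL/8 and C57BL/9 for the 3 AF with MNA libraries, and the methods name male C57BL/6J mice and do not describe the MNA group. Whether each library came from a separate mouse is not stated, so that p-values measure the spread between these libraries, which may be technical.

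Levels are in FPKM, a fragment number scaled for the length of the transcript and the depth of the library. A level of 1 FPKM corresponded to a mean read coverage of 5.84 to 8.30 per base across the 9 libraries. The hepatocyte markers summed to 16460 to 24014 FPKM in every library, against 0.18 to 0.73 FPKM for 4 T and B cell markers, of which Cd3g was at 0 in 2 libraries. The 6 Kupffer cell markers summed to 57.4 to 70.1 FPKM in PF libraries, 45.3 to 84.9 in those of AF and 57.6 to 76.2 with MNA. The 5 sinusoidal endothelial markers summed to 19.2 to 23.4, 24.1 to 36.1 and 29.2 to 33.6, the 5 stellate cell markers to 27.5 to 28.0, 24.9 to 34.8 and 25.9 to 38.3, and the 5 cholangiocyte markers to 3.27 to 4.31, 4.86 to 9.12 and 3.34 to 6.33 in the same order of groups. A sum gives most weight to its most abundant gene, and single markers within a list could differ in direction. In AF, 3 of 7 hepatocyte, 3 of 6 Kupffer, 5 of 5 endothelial and 4 of 5 stellate markers averaged higher than in PF. The part of these shifts in the levels described below was not tested. In whole liver, fewer cells of a type and less RNA per cell cannot be told apart. Assembled transcripts inside introns summed to 9433 FPKM in AF replicate 3 and to 8934 in AF with MNA replicate 1, against 2477 to 4937 in the other 7 libraries.

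As background, the pi enzymes are soluble cytosolic proteins with a broad range of electrophilic substrates, and mouse liver carries closely related copies of the gene. Theta enzymes act on small halogenated compounds and sulfate esters. The zeta enzyme is maleylacetoacetate isomerase, a late step of tyrosine breakdown. The omega enzyme has thioltransferase and dehydroascorbate reductase activity, the kappa enzyme lies in mitochondria and peroxisomes, and Mgst1 sits in the endoplasmic reticulum and outer mitochondrial membranes, where it also reduces lipid hydroperoxides.

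The members lie at 6 sites of the mouse genome (build GRCm38, GENCODE M21 annotation). Gstt3 (chr10:75774115-75781414), Gstt1 (chr10:75783813-75798584) and Gstt2 (chr10:75831114-75837424) follow each other on the minus strand of chromosome 10. Gstp1 (chr19:4035407-4037985) and Gstp2 (chr19:4040285-4046023) are neighbours on the minus strand of chromosome 19, beside Gstp3 (chr19:4057477-4059569). Gsto1 (chr19:47854970-47864790, plus strand) lies far from them on the same chromosome. Gstk1 (chr6:42245935-42250447) and Mgst1 (chr6:138140316-138156755) are on the plus strand of chromosome 6 and Gstz1 (chr12:87147165-87164723) is on that of chromosome 12. All are protein-coding genes.

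The first 180 coding bases of the 3 pi genes are shown because they are counted together in the pi entry. Bases in capitals differ from Gstp1 at the same position.
Gstp1: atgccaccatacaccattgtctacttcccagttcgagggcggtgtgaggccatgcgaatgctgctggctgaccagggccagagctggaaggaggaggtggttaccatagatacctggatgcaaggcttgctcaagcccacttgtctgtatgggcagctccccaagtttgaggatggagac
Gstp2: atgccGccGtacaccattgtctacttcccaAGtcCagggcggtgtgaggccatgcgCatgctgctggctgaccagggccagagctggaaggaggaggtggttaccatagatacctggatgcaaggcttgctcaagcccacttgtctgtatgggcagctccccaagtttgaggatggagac
Gstp3: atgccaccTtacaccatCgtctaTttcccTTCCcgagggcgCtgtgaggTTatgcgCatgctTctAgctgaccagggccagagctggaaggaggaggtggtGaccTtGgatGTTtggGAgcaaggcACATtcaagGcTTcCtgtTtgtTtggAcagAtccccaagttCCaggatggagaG
Gstp2 differed from Gstp1 at 6 of these 180 bases and Gstp3 at 36. Over the whole coding sequence of 633 bases, Gstp1 and Gstp2 were 98.1% identical with 12 differences and shared an unbroken identical run of 303 bases. Gstp3 was 72.5% identical to Gstp1 and 73.0% identical to Gstp2 after alignment, with no identical run longer than 35 bases. The pi entry held 1 transcript of Gstp1, 1 of Gstp2, 2 of Gstp3 and 17 transcripts assembled by the authors, so that its level cannot be assigned to any 1 of the 3 genes. The theta genes are further apart: Gstt1 and Gstt3 were 75.5% identical with no identical run over 35 bases, Gstt1 and Gstt2 60.4%, and Gstt2 and Gstt3 61.5%.

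Promoter windows from 250 bases before to 50 bases after the transcription start (RefSeq, GRCm38.p6) were available for 8 of the 9 members, in 11 windows, and not for Gstt2. They were searched on both strands for the AP-1 site TGAGTCA, the antioxidant response element core TGACNNNGC and the xenobiotic response element core GCGTG, and no match overlapped another. The windows of Gstp1, Gstp2 and the first start of Mgst1 are shown, as the only 3 that held a match, which stands in capitals.
Gstp1, chr19:4037863-4038162, minus strand: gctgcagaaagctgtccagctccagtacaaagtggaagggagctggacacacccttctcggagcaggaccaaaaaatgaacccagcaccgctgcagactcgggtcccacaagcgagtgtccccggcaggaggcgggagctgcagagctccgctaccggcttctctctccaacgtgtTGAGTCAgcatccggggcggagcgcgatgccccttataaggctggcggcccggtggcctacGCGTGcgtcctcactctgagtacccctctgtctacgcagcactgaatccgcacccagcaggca
Gstp2, chr19:4042172-4042471, minus strand: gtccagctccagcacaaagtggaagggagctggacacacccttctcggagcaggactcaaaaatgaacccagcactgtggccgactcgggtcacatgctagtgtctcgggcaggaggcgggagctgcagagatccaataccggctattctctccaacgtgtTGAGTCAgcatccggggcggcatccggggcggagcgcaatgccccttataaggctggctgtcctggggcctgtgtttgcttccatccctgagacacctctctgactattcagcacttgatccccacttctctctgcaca
Mgst1, chr6:138140277-138140576, plus strand: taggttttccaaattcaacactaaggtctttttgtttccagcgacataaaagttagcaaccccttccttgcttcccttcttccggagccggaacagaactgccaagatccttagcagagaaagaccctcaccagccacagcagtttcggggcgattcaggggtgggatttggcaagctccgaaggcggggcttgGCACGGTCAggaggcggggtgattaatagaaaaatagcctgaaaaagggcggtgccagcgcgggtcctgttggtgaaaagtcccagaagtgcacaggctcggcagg
TGAGTCA stood on the gene's strand at position -74 of Gstp1 and at -89 of Gstp2, counted from the start, and was found in 5.20% of 32851 mouse promoter windows. GCGTG stood at -13 of Gstp1, and 32.4% of all windows held it. The Mgst1 match is TGACNNNGC on the opposite strand at -56, a pattern in 12.4% of all windows. These are descriptions of letters and not of binding. The windows of Gstt1, Gstt3, Gstz1, Gsto1 and Gstk1 and the second start of Mgst1 did not hold these letters.

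Mgst1 was by far the most abundant member. The PF libraries held 849, 713 and 729 FPKM of it, those of AF 557, 714 and 652, and those with MNA 605, 818 and 806. It was above at least 99.6% of tested genes in every library and made up between 67.8% (AF replicate 1) and 85.2% (PF replicate 1) of the summed FPKM of the 7 members. In PF it was followed by the pi entry, 9.02 times lower on average, then Gstt1, Gsto1, Gstt3, Gstk1, Gstz1 and Gstt2. The ranges of neighbours in this order overlapped in PF for the pi entry and Gstt1 and for each step from Gsto1 to Gstz1. Within single libraries, Gstk1 was above Gstz1 in 3 of 3 PF libraries, and likewise in AF and in AF with MNA. Each of the other overlapping steps of PF held in 2 of 3 libraries, so that their order is not settled. Gstt2 stood below all others, with a mean of 4.75 ± 0.211 FPKM (SD, n = 3) in PF, 3.95 times lower than Gstz1 and with no overlap. The top and the bottom of the order, Mgst1 and Gstt2, were the same in all 3 groups, while Gstt1 stood above the pi entry on average in AF and in AF with MNA.

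**Figure D1:**
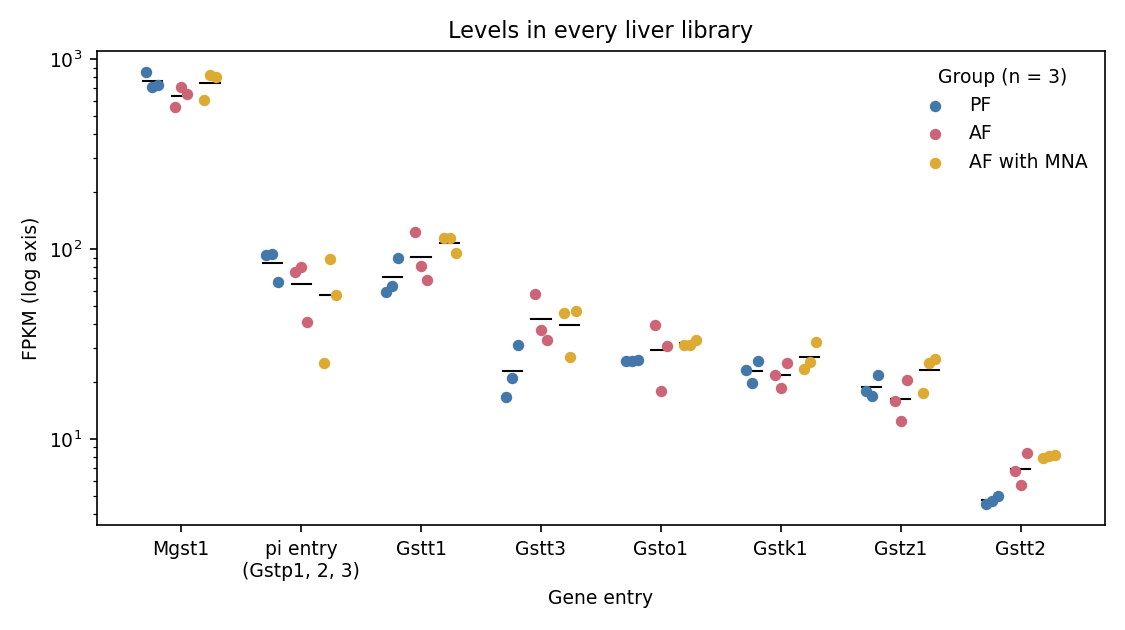
FPKM (log axis) of the 7 members and the pi entry in each of the 9 libraries, with points coloured by group and a line at the mean of the 3 libraries. Mgst1 lies between 557 and 849 FPKM in all libraries and Gstt2 between 4.55 and 8.39, and the 3 Gstt2 points of PF lie below all 6 points of the alcohol-fed groups.

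Alcohol feeding alone, AF against PF, was the comparison of the study. None of the 7 members passed the threshold of the study's methods, an unadjusted p under 0.05 with a log2 fold change (log2 ratio of the group mean FPKMs, FC) above 1 or below -1. Over all 12268 genes tested with limma, 4.30% passed it, 527 genes. The median log2 FC of the 7 members was 0.19, beside -0.031 for all genes tested, and 4 of the 7 were higher in AF. Gstt2 and Gstt3, 2 members, had an unadjusted p under 0.05, like 11.7% of all genes. Neither had an adjusted p under 0.05, as 0.326% of all genes did.

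Of the theta genes, Gstt2 was measured at 4.55, 4.73 and 4.97 FPKM in PF and at 6.77, 5.70 and 8.39 in AF. Every AF library was above every PF library. The means of 4.75 ± 0.211 and 6.95 ± 1.35 (SD, n = 3 each) gave a log2 FC of 0.55 with a limma adjusted p = 0.348 (unadjusted 0.0505 to 0.0630 without PF replicate 1, PF replicate 2 or AF replicate 3), and the exact permutation test gave p = 0.1, the smallest that 3 against 3 libraries allow. Gstt3 was at 16.5, 20.8 and 31.1 FPKM in PF and at 58.1, 37.6 and 33.1 in AF, again without overlap, although the highest PF and the lowest AF library were close. Its log2 FC of 0.91 was the largest of the 7 members in this comparison, with a limma adjusted p = 0.345. Only these 2 members had groups that did not overlap, both with AF higher, which 8.18% of all genes also showed.

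The Gstt3 entry did not measure Gstt3 alone. It held 9 known transcripts, of which 6 belong to Gstt3, 2 to Ddt, the neighbouring gene of D-dopachrome tautomerase (chr10:75771230-75773414), and 1 to Gm20441, so that its level is the sum of these genes. The log2 FC also stood near the fold threshold, and passed it with an unadjusted p under 0.05 once PF replicate 3 (log2 FC 1.20), AF replicate 2 (1.00) or AF replicate 3 (1.07) was left out, with limma adjusted p between 0.274 and 0.428. With any of the other 3 libraries left out, the log2 FC was 0.63 (AF replicate 1), 0.73 (PF replicate 1) and 0.85 (PF replicate 2), and limma's unadjusted p lay between 0.0572 and 0.0668. That p was 0.0518 with a block for the replicate number and 0.125 with a library-size covariate and no moderation.

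Gstt1, the most abundant theta gene, was at 59.5, 63.4 and 89.2 FPKM in PF and at 123, 81.0 and 68.3 in AF. The groups overlapped, since AF replicate 3 was below PF replicate 3, and the log2 FC of 0.36 had a limma coefficient of 0.33 ± 0.27 (SE) on the log2(FPKM + 1) scale (adjusted p = 0.672). The log2 FC was 0.079 without AF replicate 1 and 0.56 without PF replicate 3.

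For the omega gene Gsto1 the PF libraries were almost equal, at 25.8, 25.7 and 25.9 FPKM, with a coefficient of variation of 0.446%, and 0.0898% of all genes varied less within PF. In AF the same gene ran from 17.8 (replicate 2) over 30.9 (replicate 3) to 39.5 (replicate 1), a coefficient of variation of 37.2%. The AF values lay on both sides of the PF values, and the log2 FC of the means was 0.19 (limma adjusted p = 0.910). It was -0.083 without AF replicate 1, and 0.45 without AF replicate 2 (limma unadjusted p = 0.0315, adjusted p = 0.403). The median coefficient of variation over all genes was 16.5% in PF and 22.1% in AF.

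The zeta, kappa and microsomal genes had overlapping groups. Gstz1, the tyrosine breakdown isomerase, was at 17.9, 16.8 and 21.6 FPKM in PF and at 15.8, 12.5 and 20.3 in AF, with a log2 FC of -0.21 (limma adjusted p = 0.717), which was -0.099 without PF replicate 3, -0.056 without AF replicate 2 and -0.41 without AF replicate 3. Gstk1 was at 23.2, 19.7 and 25.5 FPKM in PF and at 21.7, 18.4 and 25.0 in AF, and the means of 22.8 ± 2.96 and 21.7 ± 3.30 (SD, n = 3 each) differed by less than either SD. Its 95% interval on the log2(FPKM + 1) scale ran from -0.46 to 0.33. For Mgst1 the mean was 764 ± 74.7 FPKM in PF and 641 ± 78.7 in AF, a log2 FC of -0.25 with a limma adjusted p = 0.622, and of -0.16 without AF replicate 1. Only AF replicate 2, at 714, reached the range of PF.

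The pi entry was at 92.6, 94.4 and 67.0 FPKM in PF and at 75.2, 80.1 and 41.4 in AF. The groups overlapped and the log2 FC was -0.37 (limma adjusted p = 0.636). The lowest AF value came from replicate 3, a library with high intron signal, and without it the log2 FC was -0.12.

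**Figure D2:**
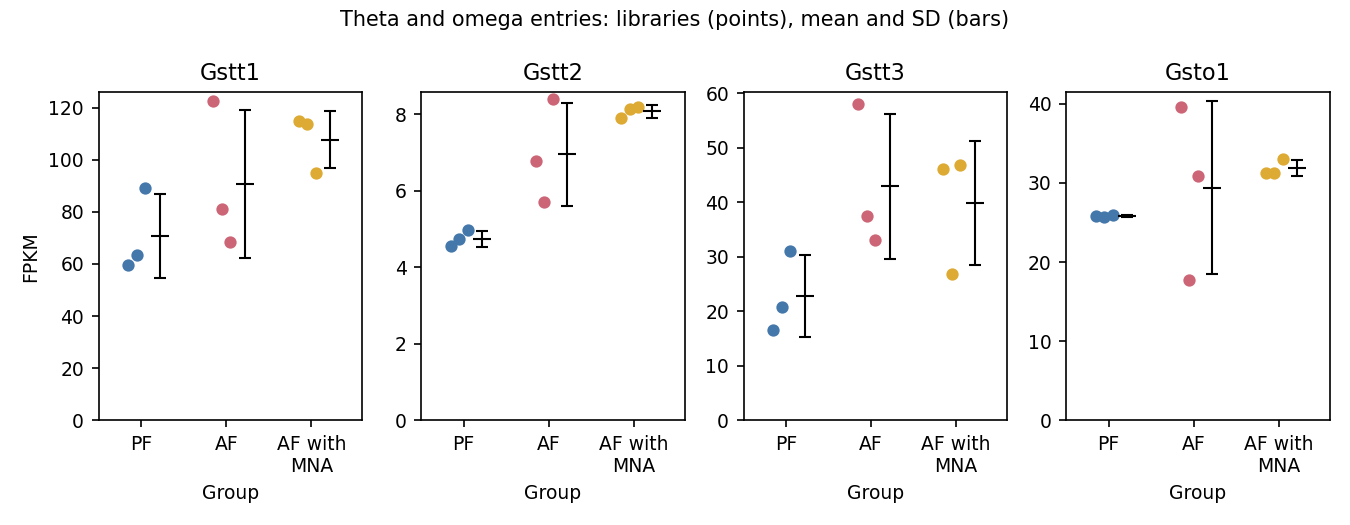
FPKM of the theta genes Gstt1, Gstt2 and Gstt3 and the omega gene Gsto1 in each library (points) by group, with the mean and SD of 3 libraries beside them (bars), each panel on its own linear axis from 0. Gsto1 is narrow in PF (25.7 to 25.9) and wide in AF (17.8 to 39.5), and the Gstt2 points of both alcohol-fed groups lie above those of PF.

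Within AF, the members did not share 1 order of the libraries. AF replicate 1 held the highest value of all 9 libraries for Gstt1, Gstt3 and Gsto1 and the lowest for Mgst1. AF replicate 2 held the lowest of all 9 for Gsto1, Gstk1 and Gstz1. PF replicate 1 held the lowest of all 9 for Gstt1, Gstt2 and Gstt3 and the highest for Mgst1. The highest value over the lowest was 1.52 for Mgst1, 1.76 for Gstk1, 1.84 for Gstt2, 2.06 for Gstt1, 2.11 for Gstz1, 2.22 for Gsto1 and 3.52 for Gstt3, and it was 3.78 for the pi entry.

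The list of other glutathione transferases held mainly enzymes of the alpha and mu classes. Of 17 named genes outside the 9 members, Gstp3 with the pi entry among them, 14 had an entry and 10 passed the filter on low values. Of these 10, 6 were upregulated in AF, none was downregulated and 4 did not pass, where 4.30% of all genes passed in either direction. Their median log2 FC was 1.62. The difference between this list and the members was not tested. Gsta2, an alpha enzyme, rose from 1.70 to 26.4 FPKM (log2 FC 3.96, limma adjusted p = 0.00515). The Gstm4 entry, a mu enzyme merged with 4 transcripts of Gstm1, rose from 45.6 to 340 FPKM (log2 FC 2.90, limma adjusted p = 0.0328). The Gstm3 entry, merged with 6 transcripts of Gstm6, rose with a log2 FC of 2.88, and Mgst3, a microsomal enzyme like Mgst1, rose from 2.53 to 14.0 FPKM (log2 FC 2.46). By adjusted p, 2 of the 10 passed, namely Gsta2 and Gstm4, where 0.326% of all genes did. Some close relatives of the members, unlike Mgst3 and the pi entry, were barely detected. Gstt4, between Gstt1 and Gstt2 on chromosome 10, was at 0.02 FPKM in 1 library and at 0 in the other 8. Gsto2 reached at most 0.17 and Mgst2 at most 0.06 FPKM.

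**Figure D3:**
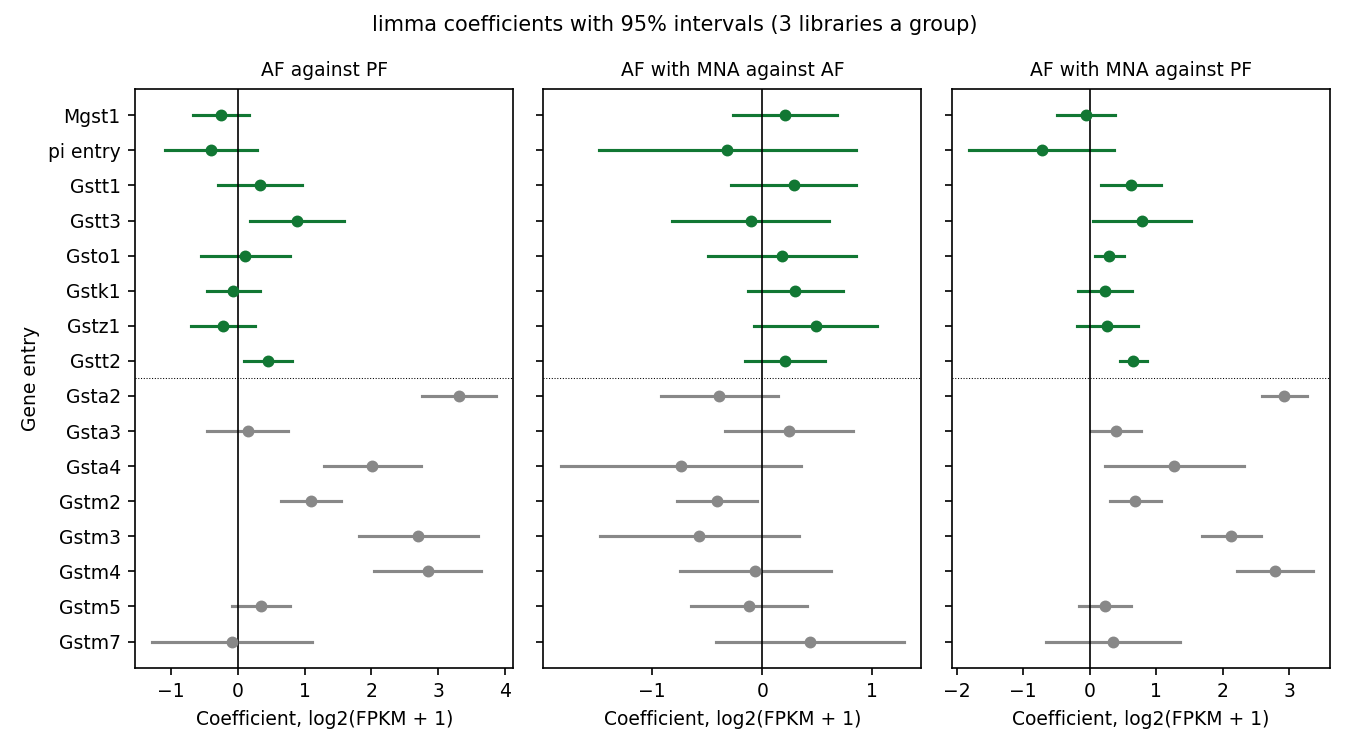
limma coefficients on the log2(FPKM + 1) scale (points) with 95% intervals (lines) for the 7 members and the pi entry (green, above the dotted line) and 8 alpha and mu entries (grey), in the 3 comparisons of 3 against 3 libraries, each panel with its own axis. Coefficients above the dotted line lie between -0.40 and 0.89 in AF against PF, where Gsta2 stands at 3.32 and the Gstm4 entry at 2.85.

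Glutathione supply and use were read from 3 further lists in AF against PF, where 4.30% of all genes passed the threshold in either direction. Of 12 tested genes of glutathione synthesis and recycling, 1 was upregulated in AF, Gclc, the catalytic subunit of glutamate-cysteine ligase that makes the first step of glutathione synthesis, from 3.67 to 7.51 FPKM (log2 FC 1.03, limma adjusted p = 0.294). Gclm, the modifier subunit of the same ligase, was at 9.00 FPKM against 13.9 in PF, with overlapping groups (log2 FC -0.62, limma adjusted p = 0.502). Of 13 tested genes that use glutathione or export its conjugates, 2 were upregulated: Abcc3, an export pump of the basolateral membrane (log2 FC 1.63, limma adjusted p = 0.0143), and Ethe1, a mitochondrial persulfide dioxygenase (log2 FC 1.23, limma adjusted p = 0.127). Around Gstz1, 1 of 5 genes of tyrosine breakdown was upregulated, Tat, the aminotransferase that opens the pathway, from 164 to 388 FPKM (log2 FC 1.24, limma adjusted p = 0.393), with overlapping groups. The median log2 FC of the lists was 0.13, 0.21 and 0.071, beside -0.031 for all genes tested. None of these lists had a downregulated gene in AF.

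AF with MNA against AF compared the alcohol diet with and without the injected compound. None of the 7 members passed the threshold, which 1.98% of 12214 genes passed, and none reached an unadjusted p under 0.05 in limma, as 5.22% of genes did. No member had an adjusted p under 0.05 either, where 0.0491% of genes had one. The groups overlapped for each of the 7, while 10.1% of all genes had groups that did not. The median log2 FC was 0.22, beside 0.0078 for all genes, and 6 of the 7 were higher with MNA. The sign rested on 1 library for Gsto1, whose log2 FC of 0.11 was -0.15 without AF replicate 2 and 0.39 without AF replicate 1. That of Gstt3, the member that was lower (-0.11), was 0.17 without AF replicate 1 and 0.11 without AF with MNA replicate 2. The largest log2 FC was that of Gstz1, at 0.51. It was at 17.4, 25.2 and 26.3 FPKM with MNA against 15.8, 12.5 and 20.3 without, where replicate 1 with MNA lay inside the range of AF (limma adjusted p = 0.940). Gstk1 was at 23.2, 25.3 and 32.5 FPKM with MNA (log2 FC 0.31) and Mgst1 had a mean of 743 ± 119 (SD, n = 3) (log2 FC 0.21). Both values moved with single libraries: the log2 FC of Gstk1 was at 0.16 without AF with MNA replicate 3 and 0.21 without AF replicate 2, and that of Mgst1 at 0.12 without AF replicate 1, 0.14 without AF with MNA replicate 2 and 0.34 without AF with MNA replicate 1. For Gstt1 the log2 FC was 0.25, and it was 0.53 without AF replicate 1 (limma unadjusted p = 0.0280) and 0.082 without AF replicate 3. For Gstt2 it was 0.22, and it was 0.092 without AF replicate 2 and 0.37 without AF replicate 3 (limma unadjusted p = 0.0465).

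The spread of 5 members was narrower with MNA than in AF, and that of Gstk1 (coefficient of variation of 18.0% against 15.2%) and Mgst1 (16.1% against 12.3%) was wider. Gstt2 was at 7.89, 8.14 and 8.20 FPKM with MNA, a coefficient of variation of 2.04%, against 19.5% in AF. Gsto1 was at 31.2, 31.3 and 33.0, with 3.16% against 37.2%, and Gstt1 at 115, 114 and 95.0, with 10.3% against 31.3%. The difference in spread was not tested, and the median over all genes was also smaller with MNA, at 16.6% against 22.1%. Gstt3 was at 46.0, 26.8 and 46.8 FPKM, with 28.4% against 31.0%, and Gstz1 had 21.1% against 24.4%.

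For the pi entry the spread was widest with MNA. It was at 25.0, 88.6 and 57.2 FPKM, a coefficient of variation of 55.9%, and 91.3% of all genes varied less in that group. The lowest value of all 9 libraries was that of replicate 1, the library with high intron signal in this group. The log2 FC against AF was -0.21 (limma adjusted p = 0.988) and turned to 0.15 without AF with MNA replicate 1. It was -0.68 without replicate 2 of that group, -0.095 to -0.036 without AF replicate 1 or 2, -0.45 without AF replicate 3, and -0.092 with the 2 libraries of high intron signal left out. The part of the intron signal in the level of the pi entry was not tested.

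**Figure D4:**
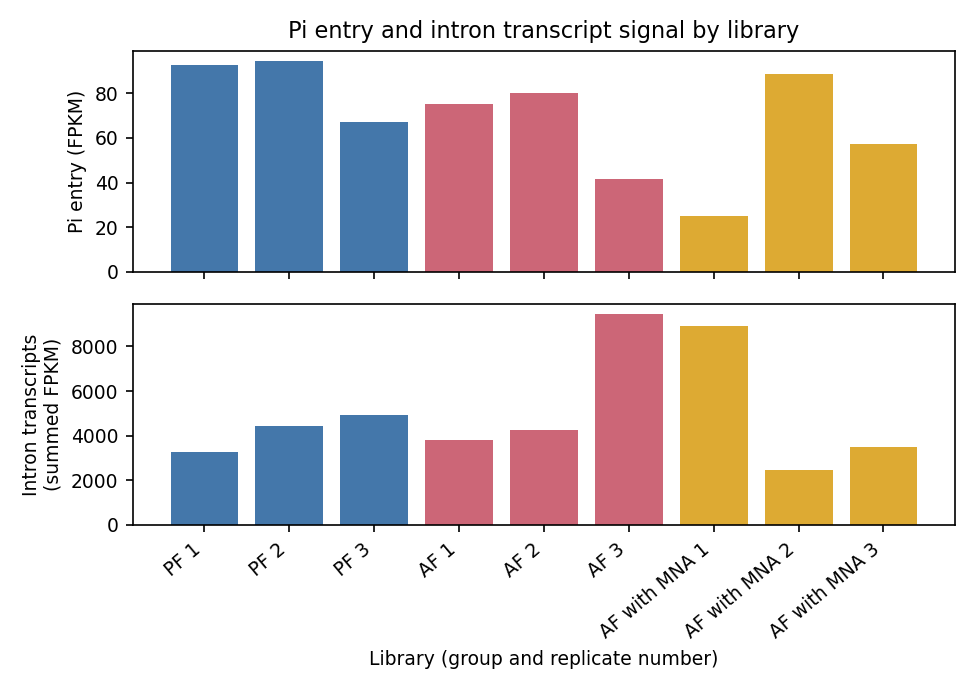
FPKM of the pi entry (upper bars) and summed FPKM of assembled transcripts inside introns (lower bars) in each of the 9 libraries, coloured by group. AF replicate 3 and AF with MNA replicate 1 have the highest intron sums, 9433 and 8934, and the lowest pi levels of all libraries, 41.4 and 25.0.

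Both libraries of high intron signal were left out as an alternative chosen after seeing the data, which left 2 libraries a group. The log2 FC of Gstz1 was then 0.87 with a limma unadjusted p = 0.00812 and adjusted p = 0.472, still under the fold threshold. It was 0.70 without AF replicate 3 alone and 0.67 without AF with MNA replicate 1 alone (limma unadjusted p of 0.0330 and 0.0275). No other member reached an unadjusted p under 0.05 with both left out, while 931 of 12040 genes did. The log2 FC was then 0.035 for Gstt1, 0.39 for Gstt2, -0.38 for Gstt3, 0.17 for Gsto1, 0.53 for Gstk1 and 0.35 for Mgst1. With all libraries kept, none of the 10 other glutathione transferases passed the threshold between AF with MNA and AF (median log2 FC -0.25). Of all genes, 1.98% passed it in either direction. Of the synthesis list, 1 of 12 genes was downregulated with MNA, Chac1, which breaks down glutathione, from 2.24 to 0.553 FPKM (log2 FC -2.02, limma adjusted p = 0.940), with overlapping groups. The 13 genes of glutathione use and the 5 of tyrosine breakdown had none past the threshold.

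AF with MNA against PF shares its libraries with the other 2 comparisons and is not independent of them. None of the 7 members passed the threshold, which 3.89% of 12276 genes passed, and 4 reached an unadjusted p under 0.05 in limma, where 14.5% of all genes did. The median log2 FC was 0.30, beside -0.023 for all genes, and 6 of the 7 were higher with MNA. The groups did not overlap for 3 members, Gstt1, Gstt2 and Gsto1, each higher with MNA, as for 9.54% of all genes.

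Gstt2 was the member with the clearest difference. Its 3 libraries with MNA lay between 7.89 and 8.20 FPKM and its 3 PF libraries between 4.55 and 4.97, with means of 8.08 ± 0.164 and 4.75 ± 0.211 (SD, n = 3 each). The 1.70-fold difference (log2 FC 0.77) had a limma coefficient of 0.66 ± 0.085 (SE) on the log2(FPKM + 1) scale and an adjusted p = 0.0499, and 0.432% of all genes had an adjusted p under 0.05. It was under the fold threshold. The fold held with any 1 library left out, at a log2 FC of 0.74 to 0.80. The adjusted call was marginal: of the alternatives that alter the p-value, a 2 FPKM minimum kept the limma adjusted p under 0.05 (0.0355), and the others gave 0.0514 to 0.277, with 0.0997 to 0.172 when 1 library was left out. The exact permutation test gave p = 0.1, the smallest possible.

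Gstt1 had a mean of 108 ± 11.1 FPKM with MNA and 70.7 ± 16.1 in PF (SD, n = 3 each), a log2 FC of 0.61 (limma adjusted p = 0.259). Its limma unadjusted p was 0.0154, and it was 0.0509 without PF replicate 2 and 0.0691 with a library-size covariate and no moderation. The lowest library with MNA, at 95.0, stood just above the highest PF library, at 89.2. Gsto1 had a smaller difference, with means of 31.8 ± 1.00 and 25.8 ± 0.115 (SD, n = 3 each), a log2 FC of 0.30 (limma adjusted p = 0.262). Its limma unadjusted p was 0.0159, and it was 0.0528 without AF with MNA replicate 3, 0.0560 with the replicate block and 0.261 with all 9 libraries in the fit. Gstt3 had a log2 FC of 0.81 with overlapping groups (limma adjusted p = 0.325). It passed the threshold with PF replicate 3 (log2 FC 1.10) or AF with MNA replicate 2 (1.03) left out, with limma adjusted p of 0.312 and 0.321. With any of the other 4 libraries left out, the log2 FC was 0.62 to 0.75 and limma's unadjusted p was 0.0989 to 0.120.

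Gstz1 (log2 FC 0.29), Gstk1 (0.25) and Mgst1 (-0.040) had overlapping groups and limma adjusted p of 0.580, 0.585 and 0.933. Gstz1 was at 0.46 without AF with MNA replicate 1 (limma unadjusted p = 0.0256) and 0.18 without replicate 3 of that group, and Gstk1 at 0.15 without PF replicate 2 and 0.090 without AF with MNA replicate 3. Mgst1 turned to 0.044 without PF replicate 1 and 0.088 without AF with MNA replicate 1, so that all 7 members were then higher with MNA. The 95% interval of Mgst1 on the log2(FPKM + 1) scale ran from -0.49 to 0.39. The pi entry had a log2 FC of -0.57 (limma adjusted p = 0.530), and it passed the threshold at -1.04 once AF with MNA replicate 2 was left out (limma adjusted p = 0.411), while it was -0.22 without AF with MNA replicate 1. Of the 10 other glutathione transferases 5 were upregulated against PF, and none was downregulated, with a median log2 FC of 1.08. In this comparison 3.89% of all genes passed the threshold in either direction. Gsta2 had the largest log2 FC, 3.52 (limma adjusted p = 0.00304). Of the synthesis list 1 of 12 genes was upregulated, Gclc (log2 FC 1.06, limma adjusted p = 0.162). Gclm, at 7.39 FPKM against 13.9 in PF, was lower in each library with MNA than in each PF library but under the fold threshold (log2 FC -0.91, limma adjusted p = 0.0979). Of the use list 1 of 13 was upregulated, Abcc3 (log2 FC 1.37, limma adjusted p = 0.0459), and of tyrosine breakdown none of 5.

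Gstt3 was the 1 member whose log2(FPKM + 1) had an SD over 0.5 across the 9 libraries (0.56). Among 3606 genes averaging 5 FPKM or more, those with the most similar course over the 9 libraries were Cep85l (root mean square difference 0.20), Gna11 (0.24) and Sulf2 (0.25), each on the log2(FPKM + 1) scale centred on its own mean. As in Gstt3, the highest of the 9 libraries was AF replicate 1 for Cep85l (9.16 FPKM) and Gna11 (11.7 FPKM), while for Sulf2 it was AF with MNA replicate 1 (6.76 FPKM). For the pi entry, which was added to this search after its values were seen, they were Lgals3bp (0.21), Calr (0.32) and Atf6 (0.33). Each of these 3 had its lowest value in AF with MNA replicate 1, at 7.09, 59.0 and 3.79 FPKM. The genes like Gstt3 and like the pi entry were chosen for their likeness over the same 9 libraries. Shared highest or lowest libraries therefore follow largely from that choice.

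Noncoding transcripts at the members were few. Of 4486 circRNAs, 0 had a member as host gene or overlapped a member's locus, and of 26083 lncRNA transcripts 0 carried a member's name. Within 10 kb of a member lay 2 assembled single-exon lncRNA transcripts. The first, 6392 bases from Gstt3, was at 1.47 FPKM in PF replicate 1 and at 0 in the other libraries. The second, 5979 bases from Mgst1, was at 0.997 FPKM in AF replicate 2, at 0.388 in AF with MNA replicate 1 and at 0 in the rest. The gene table also held 3 entries of assembled transcripts only under member names, 2 for Gstt2 and 1 for Gstt3, which were at 0 in most libraries and reached at most 1.75 FPKM.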

How the data were processed

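Liver RNA of 9 libraries (PF, AF and AF with MNA, 3 each, grouped by their labels) was depleted of ribosomal RNA and sequenced strand-specifically from both ends. The authors made FPKM values of genes and lncRNAs with StringTie, and the submitters' processing notes also name cutadapt 1.9, FastQC, HISAT2, StringTie 1.3.4, edgeR and TopHat without roles. The genome build is not given in the sources used here, but 7841 of 7879 known lncRNA transcripts have their identifier in GENCODE M21 (GRCm38), 7708 of them at identical coordinates. The deposited coverage signal of lncRNA transcripts was used as a measure of depth, and the deposited circRNA junction counts (1588 to 2545 per library) were searched for members. Read counts per gene are not in the tables used here, so that precision was judged from the spread between libraries.

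Values were transformed as log2(FPKM + 1). Named entries that had a known transcript and averaged 0.5 FPKM or more in the 6 libraries of a comparison entered limma 3.58.1. The fit used lmFit and eBayes with an intensity trend (R 4.3.3), two-sided, with Benjamini-Hochberg adjustment over all genes. Only the call by unadjusted p and fold change was tried on simulated data, with the same spread for every gene. The adjusted p was not tried in this way. A fold change is the log2 ratio of group mean FPKMs. Levels of single genes were also compared with a two-sided exact permutation test. Coding identities came from global alignment (Biopython 1.88). Alternatives were a pseudocount of 0.1, no filter or a 2 FPKM minimum, 2 scalings (equal median, equal sum), eBayes without the trend, a joint fit of all 9 libraries, a block for the replicate number, limma's coefficient as fold change, Ballgown's library-size covariate in a model without moderation, and each library left out. The members, lists and tests were chosen with earlier results of these data known. Named genes were all members, up to 4 genes of each list that passed the threshold in any comparison, by fold change in AF against PF, and the 3 genes most like a member with an SD over 0.5. Cd3g, Gclm, Gstt4, Gsto2, Mgst2 and the genes most like the pi entry were named after their values were seen. Sequences of 8 members and motif shares came from RefSeq promoter windows (GRCm38.p6) and coding sequences from GENCODE M21.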

Additional observations from a re-analysis of the deposited data

How the results depend on the processing

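Of 343 recomputed fold changes of the 7 members, 330 kept their direction and their side of the threshold, 5 newly passed it and 8 reversed. All 5 were Gstt3 with 1 library left out, which gave 0 to 1 members past the threshold in AF against PF and in AF with MNA against PF. The lowest and highest log2 FC with 1 library left out were -0.18 and 0.035 for Gstk1 and -0.083 and 0.45 for Gsto1 in AF against PF, -0.26 and 0.17 for Gstt3, -0.15 and 0.39 for Gsto1 and -0.68 and 0.15 for the pi entry in AF with MNA against AF, and -0.11 and 0.088 for Mgst1 in AF with MNA against PF. Without AF replicate 1, Gsto1 was at -0.083 in AF against PF and Gstt3 at 0.17 in AF with MNA against AF.

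Genes past the threshold numbered 527, 242 and 477 in AF against PF, AF with MNA against AF and AF with MNA against PF. They numbered 1183, 676 and 1105 with no filter, 265, 81 and 228 with a 2 FPKM minimum, 249, 99 and 229 where the limma coefficient served as fold change, and 336, 105 and 247 with the library-size covariate in a model without eBayes moderation, 2 changes made together. With 1 library left out they ranged from 516 to 764, 211 to 367 (without AF replicate 3) and 467 to 545. Leaving out both libraries of high intron signal, an alternative chosen after seeing the data, gave 470 in AF with MNA against AF. The cause was not tested.

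Replicate numbers showed no sign of pairing the libraries. The deviations of libraries with the same number correlated at -0.080 to 0.061, and those with different numbers at -0.12 to 0.097. With 3 libraries a group, these correlations cannot exclude a pairing. With the number as a replicate block, genes past the threshold were 562, 260 and 488, members 0 in each, and genes with an adjusted p under 0.05 went from 40 to 18, from 6 to 1 and from 53 to 0; Gstt2 in AF with MNA against PF had an adjusted p of 0.266 (limma). With the covariate and no moderation these adjusted numbers were 0, 1 and 0, and over all alternatives they ranged from 0 to 86, 0 to 13 and 0 to 53. Leave-one-out arms of 2 libraries share the spread of the other group.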
